A study of Rattus norvegicus with 28 samples.

Results

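Endothelium of Lewis rat hearts 2 days after transplantation into Lewis recipients (isografts, matched for transplantation antigens) was compared with endothelium of Lewis hearts that had not been transplanted, on 6 of the 28 arrays of the series. The 6 arrays were taken by their titles, 3 isograft arrays of day 2 and 3 normal arrays, and every gene that could be named was tested, 14217 in all. All rats were male, and each grafted heart had been joined to vessels of the recipient's neck by cuffs. Both groups were prepared alike from minced hearts, first by removing cells with CD45, a surface protein of leukocytes, and then by collecting cells with CD31 (the product of Pecam1), a surface protein of endothelium that platelets and some leukocytes also carry. The controls were hearts left in place, so the operation, the time without blood flow, the site in the neck and the 2 days that followed cannot be told apart. Further sets of arrays serve for comparison: isografts of days 3 and 4, and DA (Dark Agouti) hearts, normal or grafted into Lewis recipients (allografts).

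Endothelium lines all vessels, and at rest it holds most leukocytes off. When injured or exposed to cytokines it brings selectins to its surface, on which leukocytes begin to roll, then the immunoglobulin-like receptors that hold them, and it secretes chemokines that call them in. This mostly takes place in small veins, whereas heart muscle is supplied by a dense bed of capillaries that carry fatty acids and oxygen across.

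The endothelial identity of the preparations was checked first. Pecam1 read 11.94, 11.58 and 11.04 log2 in normal arrays 1 to 3 and 11.65, 11.67 and 11.41 in isograft arrays 1 to 3, and the angiopoietin receptor Tek read 12.79, 12.71 and 12.81 against 12.78, 12.56 and 12.71. The groups overlapped for both. The mean of 18 endothelial markers was 12.01 to 12.22 log2 in the normal arrays and 12.03 to 12.18 in the isograft arrays. In limma 0 of the 18 had an adjusted p under 0.05. A second fit described below, with a block for the replicate number chosen after seeing the data, called Vwf higher (0.67 log2) and Kdr lower (-0.67 log2). Arrays correlated with r = 0.986 to 0.990 among the normal and 0.984 to 0.994 among the isograft samples (across genes, so no test goes with it). With 3 arrays a group, the standard error (SE) of a difference had a median of 0.165 log2, and changes much under 1 log2 unit, or 2-fold, could often be missed.

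The promoters of several attractants and receptors of leukocytes that rose, described further on, are shown because they carry letters of the binding motifs of NF-kB and AP-1, transcription factors of the inflammatory response. Sequences are from RefSeq, build GRCr8, from 250 bases before to 50 bases after the gene's start, with matches in capitals. The window of Vcam1 lies at chr2:206742734-206743033 on the minus strand, that of Madcam1 at chr7:10690273-10690572 (minus), that of Cxcl2 at chr14:17467206-17467505 (minus) and that of Ccl7 at chr10:67513845-67514144 (plus).
Vcam1: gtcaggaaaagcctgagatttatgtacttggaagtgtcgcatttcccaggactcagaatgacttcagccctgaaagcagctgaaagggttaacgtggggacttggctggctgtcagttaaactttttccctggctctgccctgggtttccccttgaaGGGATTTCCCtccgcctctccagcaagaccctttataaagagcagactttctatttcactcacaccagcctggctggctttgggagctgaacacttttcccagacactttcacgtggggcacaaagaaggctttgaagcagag
Madcam1: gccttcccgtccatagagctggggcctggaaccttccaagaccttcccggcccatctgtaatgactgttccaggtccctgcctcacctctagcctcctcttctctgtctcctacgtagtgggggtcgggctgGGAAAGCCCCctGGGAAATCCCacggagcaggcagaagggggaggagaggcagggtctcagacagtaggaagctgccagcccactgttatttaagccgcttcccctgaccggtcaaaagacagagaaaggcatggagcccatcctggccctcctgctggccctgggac
Cxcl2: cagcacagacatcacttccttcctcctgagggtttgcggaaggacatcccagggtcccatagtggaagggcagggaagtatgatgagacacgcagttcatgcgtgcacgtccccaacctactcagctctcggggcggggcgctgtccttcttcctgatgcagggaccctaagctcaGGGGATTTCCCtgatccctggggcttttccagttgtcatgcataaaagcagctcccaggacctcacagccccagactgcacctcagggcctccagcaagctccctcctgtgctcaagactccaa
Ccl7: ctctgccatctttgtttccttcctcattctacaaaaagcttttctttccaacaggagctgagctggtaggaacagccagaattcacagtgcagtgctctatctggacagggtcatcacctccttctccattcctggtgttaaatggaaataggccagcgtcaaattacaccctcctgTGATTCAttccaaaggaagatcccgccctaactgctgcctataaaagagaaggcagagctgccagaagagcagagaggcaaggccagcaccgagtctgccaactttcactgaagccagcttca
The Vcam1 window held 1 match to the NF-kB consensus, whose first base lay 93 bases before the start. Madcam1 held 2, at -118 and -106, and Cxcl2 held 2 that overlap each other, at -74 and -73. Ccl7 held 1 stretch, TGATTCA at -73, that matched the AP-1 motif as searched here, TGANTCA, with any base at its centre. Both strands were searched, and neither motif was found in the windows of Sele and Ccl6. Of 27457 rat promoters, 4.16% held the NF-kB consensus and 7.33% the AP-1 motif, and of the 11700 genes tested that had a window, 4.95% and 5.43%. Of the 114 called higher with a window, 12 (10.5%) held the first and 9 (7.89%) the second, and of the 49 called lower, 3 (6.12%) held each. These shares describe letters and were not tested.

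2 days after matched grafting, 211 genes differed from normal endothelium at an adjusted p under 0.05 in limma (1.48% of the genes tested), 151 higher (1.06%) and 60 lower (0.422%). The genes called higher had a median difference of 1.37 log2, and 99 of them had risen at least 2-fold and 9 at least 8-fold. Those called lower had a median of -0.87 log2, and 23 had fallen at least 2-fold. Of all 14217 genes, 6904 had a difference above 0. Same-numbered arrays of the groups deviated together, and a fit on the 6 arrays with the replicate number as a block called 572 genes (398 higher and 174 lower, 4.02%). This block was chosen after seeing the data, and the labels do not say that the numbers pair samples. Its adjusted p values therefore stand only beside those of the main fit and replace none of its calls. List counts with this block are to be read beside its totals of 398 and 174, and other list counts beside 1.06% higher and 0.422% lower. The lists were chosen with earlier results of these data known, so no count of list members is a test. The fit on the 6 arrays without the block called 177 genes (137 higher and 40 lower), and 30 of 93 named calls were lost in it. The main fit called 92 genes without isograft array 2, 127 without normal array 1, 136 without normal array 2, and 146 to 176 without any other array. In the full fit and in each of these 6, 79 genes (61 higher, 18 lower) were called. Isograft array 2 was the highest of its group for 122 of the 151 genes called higher (80.8%, against 38.9% of all genes). All 211 genes had no overlap between the groups, as had 17.5% of all genes.

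**Figure D1:**
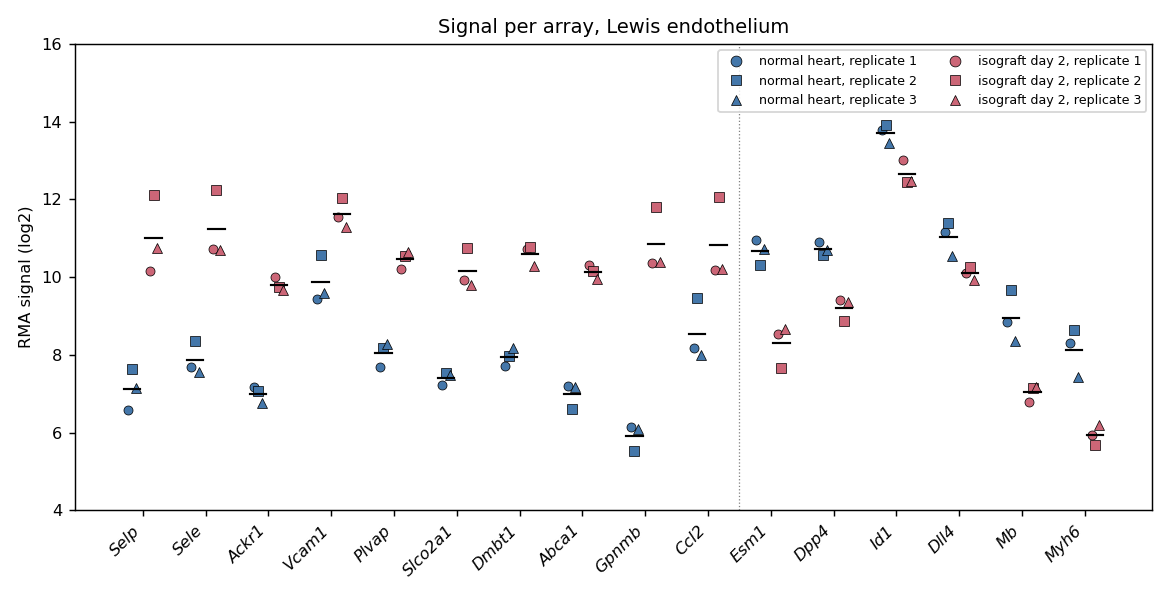
Signal (RMA, log2) of 10 genes that rose and 6 that fell, in each of 3 normal Lewis arrays (blue) and 3 isograft arrays of day 2 (red), with a marker for each replicate number and a line at each group's mean. The groups do not overlap for any of the 16 genes, as for all 211 genes called and for 17.5% of all genes. Isograft array 2 (square) lies above the other isograft arrays for Selp, Sele, Gpnmb and Ccl2 and below them for Esm1 and Dpp4.

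The capture receptors of small veins rose strongly. P-selectin (Selp), on which leukocytes begin to roll, read 6.58, 7.64 and 7.14 log2 in normal arrays 1 to 3 and 10.16, 12.11 and 10.74 in isograft arrays 1 to 3. E-selectin (Sele), which slows rolling cells, read 7.69, 8.37 and 7.55 against 10.73, 12.24 and 10.71. For both, the lowest isograft array was more than 2 log2 above the highest normal array, and array 2 was the highest of each group. The differences were 3.88 log2 for Selp (SE 0.44, adjusted p = 3.35e-05), or 14.8-fold, and 3.36 log2 for Sele (SE 0.38, adjusted p = 3.35e-05), or 10.2-fold. A second, dimmer probe set for Selp gave 0.34 log2. Ackr1, a receptor that binds and carries chemokines across venules, read 7.18, 7.06 and 6.76 against 10.01, 9.74 and 9.68 log2, tight within each group, a rise of 2.81 log2 (SE 0.30, adjusted p = 2.26e-05).

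Among receptors for firm adhesion, Vcam1 and Madcam1 rose. Vcam1, which binds integrins of monocytes and lymphocytes, read 9.44, 10.58 and 9.60 log2 in the normal and 11.56, 12.04 and 11.29 in the isograft arrays, a rise of 1.76 log2 (SE 0.32, adjusted p = 0.00454). Madcam1, the addressin known from gut venules, read 5.47, 5.38 and 5.58 against 5.86, 6.69 and 6.44, a rise of 0.85 log2 near the dim end of the array (SE 0.16, adjusted p = 0.00525, and 0.055 without isograft array 2). Icam1, the main ligand of leukocyte integrins, read 8.75, 10.46 and 8.91 against 10.04, 12.44 and 10.03 log2. Its groups overlapped, and its difference of 1.46 log2 had an adjusted p of 0.291 in the main fit and was not called. The fit on the 6 arrays with the replicate block, chosen after seeing the data, gave 0.0029. Of 16 measured adhesion genes 5 rose and 0 fell, against 1.06% of all genes called higher, and their median was 0.34 log2 against -0.01 for all genes. The list was chosen with earlier results of these data known, so these shares are no test.

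Selp, Sele, Ackr1 and Vcam1 also belong to the markers of venous endothelium. Of 10 measured, these and Plvap rose, against 1.06% of all genes called higher, and the 5 were called with each array left out in turn. The list's median was 1.21 log2. Its mean stood at 9.17 to 9.52 log2 in the normal arrays and at 10.74 to 11.21 in the isograft arrays. Nr2f2, the transcription factor of venous identity, was in the list, and its groups overlapped (0.63 log2, adjusted p = 0.492). Of 10 arterial markers 1 fell, the Notch ligand Dll4, with a list median of -0.10 log2. Of 10 markers of heart capillaries none was called. All had a difference below 0, where 6904 of all 14217 genes lay above 0. Their median was -0.43 log2, and their mean 11.74 to 11.93 log2 in the normal and 11.11 to 11.60 in the isograft arrays. In RNA of whole preparations, fewer cells of a kind and less RNA per cell cannot be told apart.

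Plvap, which forms the diaphragms of endothelial fenestrae and is sparse in heart capillaries, read 7.68, 8.17 and 8.29 log2 in the normal and 10.21, 10.55 and 10.64 in the isograft arrays. The isograft arrays lay close together and far above the normal ones, a rise of 2.42 log2 or 5.36-fold (SE 0.26, adjusted p = 2.75e-05). Of 21 genes of junctions and permeability, Plvap and Ehd4, an endocytosis ATPase, rose and 0 fell. Ehd4 rose by 0.85 log2 (adjusted p = 0.0238, and 0.125 to 0.189 without normal array 1, normal array 3 or isograft array 2).

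Among 19 genes of the VEGF, angiopoietin and Tie systems, 2 rose and 0 fell, against 1.06% of all genes called higher. With the block on the 6 arrays 4 rose and 1 fell. Angptl4, a secreted inhibitor of lipoprotein lipase that also acts on vessel permeability, read 6.91, 6.85 and 6.57 log2 in the normal and 9.14, 11.18 and 10.24 in the isograft arrays. The isograft arrays spread over more than 2 log2 units and all lay above the normal arrays, with a rise of 3.41 log2 or 10.6-fold (SE 0.45, adjusted p = 0.000167). Angpt2, which loosens vessels by opposing angiopoietin 1 at Tie2, read 9.57, 9.52 and 9.58 against 10.47, 10.62 and 10.46, a rise of 0.96 log2 (SE 0.18, adjusted p = 0.006). The VEGF receptor Kdr read 13.43, 13.15 and 13.18 against 12.75, 12.37 and 12.64 log2, a difference of -0.67 log2 (adjusted p = 0.0664, and 0.0197 with the block on the 6 arrays). Col18a1, the collagen from which the antiangiogenic fragment endostatin is cut, rose by 1.80 log2 (SE 0.28, adjusted p = 0.00138).

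Of 21 genes of tip cells, apelin and Notch, 2 fell and 0 rose. Esm1, a proteoglycan secreted by endothelial tip cells, read 10.96, 10.31 and 10.73 log2 in the normal and 8.55, 7.67 and 8.67 in the isograft arrays. It was the largest fall among the genes called, at -2.37 log2 (SE 0.45, adjusted p = 0.0058, and 0.0576 without isograft array 2). Dll4, the Notch ligand of arterial and tip cells, read 11.17, 11.39 and 10.54 against 10.12, 10.25 and 9.93, a fall of -0.93 log2 (SE 0.19, adjusted p = 0.0101). Its call was lost without normal array 1, normal array 2 or isograft array 3 (adjusted p = 0.0606 to 0.0899).

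Of 29 genes of BMP and TGF-beta signalling, 3 fell, against 0.422% of all genes called lower, and 0 rose. This list too was chosen with earlier results of these data known, and its share was not tested. With the block on the 6 arrays 5 fell and 3 rose. Each of the 3 called without the block belongs to the BMP branch. Id1, a BMP target that blocks helix-loop-helix transcription factors, read 13.78, 13.92 and 13.46 log2 in the normal and 13.02, 12.46 and 12.48 in the isograft arrays, a fall of -1.06 log2 (SE 0.24, adjusted p = 0.0244). Id3, of the same family, fell by 0.63 on the log2 scale (adjusted p = 0.022), and Smad9, a transducer of BMP receptors, by 0.91 (adjusted p = 0.0244), while a second probe set of Smad9 gave -0.05. Id3 alone was left without normal array 1, and none of the 3 without normal array 2, isograft array 2 or isograft array 3, with adjusted p from 0.0931 to 0.164 for the lost calls. The list's median was -0.12 log2.

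Chemokines that attract monocytes and neutrophils rose, with a wide spread between arrays. Ccl2, the main attractant of monocytes, read 8.17, 9.46 and 8.01 log2 in the normal and 10.18, 12.06 and 10.22 in the isograft arrays, a rise of 2.27 log2 (SE 0.48, adjusted p = 0.0136). Ccl7, which acts through the same receptor, read 5.58, 6.81 and 5.94 against 7.89, 10.02 and 8.31, a rise of 2.63 log2 (SE 0.55, adjusted p = 0.0134). For both, array 2 was the highest of either group, and the calls were lost without normal array 1, normal array 3 or isograft array 2 (adjusted p = 0.0599 to 0.135). Cxcl2, an attractant of neutrophils, rose by 2.21 log2 (adjusted p = 0.0461), and Ccl6, a CC chemokine of rodent myeloid cells, by 2.22 log2 (adjusted p = 0.0437). Both calls were lost without normal array 1 or 3 or isograft array 2 or 3, and that of Ccl6 also without normal array 2 (adjusted p = 0.0538 to 0.355).

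Of 27 chemokine genes, 4 rose and 0 fell, against 1.06% of all genes called higher, with a list median of 0.39 log2. The count was 0 without normal array 1, normal array 3 or isograft array 2, and 9 with the block on the 6 arrays. Cxcl11, a ligand of the T cell receptor Cxcr3, read 5.47, 6.10 and 6.19 log2 in the normal and 8.20, 9.27 and 8.19 in the isograft arrays. Its difference of 2.64 log2 missed the threshold (adjusted p = 0.0653) and passed with the block (0.00032). Cxcl2 and Ccl6 were also at least 2-fold higher, with no overlap of arrays, in leukocytes taken from allografts than in allograft endothelium (leukocyte-high genes). Ccl2 and Ccl7 were higher in these leukocytes too, by 1.30 and 1.40 log2, but their arrays overlapped. Pan-leukocyte markers averaged 6.94 to 7.21 log2 in the normal and 7.30 to 7.98 in the isograft arrays, with array 2 the highest of the isografts. With that mean as a covariate 0 of the 27 were called, and the differences were 1.53 log2 for Ccl2, 1.79 for Ccl7, 1.36 for Cxcl2 and 1.33 for Ccl6 (adjusted p = 0.173, 0.173, 0.528 and 0.49).

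Inflammatory and acute-phase genes beyond these gave few calls. Of 21 genes of the NF-kB response 1 rose and 0 fell (median 0.44 log2), and with the block on the 6 arrays 6 rose and 1 fell. It was Ptgs2, the inducible cyclooxygenase, which read 5.01, 5.97 and 5.40 log2 in the normal and 6.96, 10.45 and 8.20 in the isograft arrays. Its rise of 3.08 log2 (SE 0.64, adjusted p = 0.0133) was lost without normal array 1, normal array 3 or isograft array 2 (adjusted p = 0.0516 to 0.106). Tnf read 10.70, 11.74 and 10.32 log2 in the normal and 9.37, 9.73 and 9.76 in the isograft arrays, with a difference of -1.30 log2 (adjusted p = 0.124, and 0.0183 with the block). Il1b, the cytokine interleukin 1 beta, read 7.39, 10.48 and 7.32 log2 in the isograft arrays against 5.92, 6.86 and 6.90, so that most of its difference of 1.83 log2 lay in array 2 (adjusted p = 0.314).

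Of 24 genes of the STAT3 and acute-phase response, 4 rose and 0 fell, with a median of 0.43 log2, and 8 rose with the block on the 6 arrays. Lbp, which presents bacterial lipopolysaccharide to Cd14, read 7.21, 6.96 and 7.57 log2 in the normal and 8.88, 8.97 and 9.03 in the isograft arrays, a rise of 1.71 log2 (SE 0.39, adjusted p = 0.0235). Its call held without normal array 3 and was lost without any other array (adjusted p = 0.0614 to 0.133). Il6st, the signalling chain of interleukin 6 receptors, rose by 0.77 log2 (adjusted p = 0.00836, and 0.0655 without isograft array 2). Fgl2, a membrane prothrombinase of the fibrinogen family, rose by 1.99 log2 (SE 0.28, adjusted p = 0.000409), and Cd14, a myeloid receptor for lipopolysaccharide, by 1.86 log2 (adjusted p = 0.00506). Serpina3n, a protease inhibitor induced in inflamed endothelium and glia of rodents, read 4.84, 5.05 and 4.83 against 7.16, 7.81 and 7.43, a rise of 2.56 log2 (SE 0.44, adjusted p = 0.003), and was the 1 called gene of 13 induced by interferon-gamma (6 with the block). Of 23 genes induced by type I interferon 0 were called, and their differences ran from -0.68 to 0.24 log2. None of 15 genes of MHC class I or of 8 of MHC class II was called either, with medians of 0.03 and 0.65 log2, and 7 of the latter 8 were higher in leukocytes.

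The prostaglandin transporter Slco2a1 read 7.22, 7.54 and 7.47 log2 in the normal and 9.94, 10.75 and 9.80 in the isograft arrays, with the normal arrays close together and isograft array 2 above the others of its group. The rise was 2.75 log2 or 6.73-fold (SE 0.27, adjusted p = 1.02e-05), and its other probe set gave 1.39. Ptgs1, the constitutive cyclooxygenase, read 8.14, 8.28 and 8.11 against 9.14, 9.53 and 9.14, a rise of 1.09 log2 (SE 0.20, adjusted p = 0.00454). Its other probe set gave 0.06, and the mean of the probe sets was not called (0.58 log2, adjusted p = 0.0758). Ptgs1 was the 1 called gene of 26 of vascular tone (4 with the block on the 6 arrays). Ptgs2os, an RNA antisense to Ptgs2 named after its value was seen, rose by 0.57 log2 (adjusted p = 0.0318, and 0.117 to 0.239 without normal array 1 or 3 or isograft array 2 or 3). Whether the probe set reads the antisense strand alone was not tested.

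Exporters of cholesterol rose. Abca1, which loads cholesterol onto apolipoprotein A1, read 7.21, 6.60 and 7.18 log2 in the normal and 10.32, 10.15 and 9.95 in the isograft arrays. The isograft arrays lay close together and array 1 was the highest, and the rise was 3.14 log2 or 8.84-fold (SE 0.34, adjusted p = 2.75e-05), with 1.66 log2 in the lowest of 4 probe sets. Abcg1, which exports cholesterol to high-density lipoprotein, rose by 1.30 log2 (SE 0.23, adjusted p = 0.00377, 0.42 in the lowest of 3 probe sets). Apoe, the lipoprotein acceptor secreted by macrophages, read 11.83, 11.94 and 11.84 against 12.98, 12.82 and 12.78, a rise of 0.99 log2 (SE 0.19, adjusted p = 0.00688), while its other probe set gave 0.11. Scarb1, the receptor for high-density lipoprotein, and Lpcat3, which remodels phospholipids, were named after their values were seen and rose by 1.19 and 0.49 log2 (adjusted p = 0.000456 and 0.00469, the latter 0.0633 with the block on the 6 arrays).

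Of 20 genes of cholesterol synthesis and its control, the exporters Abca1 and Abcg1 rose and 1 fell, Srebf2, which drives synthesis. Srebf2 read 9.77, 9.31 and 9.40 log2 in the normal and 8.72, 8.73 and 8.71 in the isograft arrays, a fall of -0.77 log2 (adjusted p = 0.0437) that was lost whichever array was left out (adjusted p = 0.0644 to 0.22), and a second probe set gave -0.03. The list's median was -0.33 log2, and 15 of its 20 members lay below 0, where 6904 of all 14217 genes lay above 0. With the block on the 6 arrays 7 fell. Msmo1, an enzyme of the pathway, read 9.47, 9.28 and 9.56 against 8.70, 8.54 and 8.80 log2 (-0.76 log2, adjusted p = 0.064, and 0.00986 with the block). Abca1, Abcg1 and Apoe were leukocyte-high, and Scarb1 and Lpcat3 were not.

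Proteases of the matrix and their inhibitors rose in part. Adamts4, a protease that cuts proteoglycans, read 6.39, 8.37 and 6.36 log2 in the normal and 9.62, 12.08 and 9.88 in the isograft arrays. Array 2 was the highest of both groups, and the rise was 3.49 log2 or 11.2-fold (SE 0.59, adjusted p = 0.00258, and 0.0686 in the fit on the 6 arrays without the block). Timp1, an inhibitor of metalloproteases, showed the same order, with 7.49, 9.31 and 7.83 against 9.93, 11.72 and 10.12, a rise of 2.38 log2 (SE 0.52, adjusted p = 0.0189). It was lost without normal array 1, normal array 3 or isograft array 2 (adjusted p = 0.0962 to 0.182). With the lysosomal protease Ctss (1.79 log2, adjusted p = 0.00525, and 0.055 without isograft array 2), 3 of 25 proteases and inhibitors rose and 0 fell. Without isograft array 2, 1 rose, and with the block on the 6 arrays 6 rose and 1 fell.

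Of 31 collagen and matrix genes, Col18a1 and Spp1 rose and 0 fell. The list's median was 0.76 log2, and 26 of its members lay above 0, against 6904 of all 14217 genes. Spp1 (osteopontin), a matrix protein made by macrophages, rose by 3.36 log2 (SE 0.62, adjusted p = 0.00506, and 0.0506 without isograft array 2). Postn, a matrix protein of activated fibroblasts, read 4.64, 4.18 and 5.07 log2 in the normal and 6.64, 9.54 and 8.35 in the isograft arrays (3.54 log2, SE 1.03, adjusted p = 0.102). With the block on the 6 arrays 14 of the 31 rose, Postn among them (adjusted p = 0.00576). The mean of 15 fibroblast markers was 7.13 to 7.71 log2 in the normal and 7.39, 8.36 and 7.66 in the isograft arrays, with overlap, and its part in these differences was not tested.

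The metallothionein Mt2A, which binds zinc and copper, read 8.26, 9.32 and 8.75 log2 in the normal and 11.03, 11.65 and 11.19 in the isograft arrays, a rise of 2.51 log2 (SE 0.44, adjusted p = 0.00335). Cp (ceruloplasmin), a copper-carrying ferroxidase, rose by 1.49 log2 (SE 0.26, adjusted p = 0.00365). These were the 2 called of 26 genes of oxidative stress and metals (6 with the block on the 6 arrays). Myc, the growth-driving transcription factor, rose by 1.96 log2 (SE 0.35, adjusted p = 0.00475, and 0.0594 in the fit on the 6 arrays without the block). It was the 1 called of 27 immediate early genes and Yap targets (4 higher and 1 lower with the block). None of 36 proliferation genes was called (3 higher and 1 lower with the block). Their median was 0.41 log2, and 32 lay above 0, against 6904 of all 14217 genes. The list's mean overlapped between the groups, at 8.18, 7.76 and 7.36 log2 in normal and 8.15, 8.36 and 7.96 in isograft arrays 1 to 3. Actn1, which cross-links actin at adhesions, read 10.57, 10.31 and 10.67 against 12.02, 12.07 and 11.86, a rise of 1.47 log2 (SE 0.17, adjusted p = 3.94e-05).

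Several of the genes called lay outside the lists. Dmbt1, a scavenger receptor-like protein of mucosa and endothelium, read 7.72, 7.97 and 8.17 log2 in the normal and 10.72, 10.78 and 10.30 in the isograft arrays, a rise of 2.65 log2 (SE 0.25, adjusted p = 1.02e-05). Fgf23, best known as the phosphate hormone of bone, read 4.83, 5.60 and 4.79 against 7.42, 8.71 and 7.27, a rise of 2.72 log2 (SE 0.38, adjusted p = 0.000361). Fam167b read 9.01, 8.98 and 9.06 against 10.30, 10.44 and 10.47, a rise of 1.39 log2 (SE 0.16, adjusted p = 3.94e-05). For all of these, leukocytes of allografts read at least 2-fold below allograft endothelium. The membrane proteins Tmem176a and Tmem176b rose by 1.55 and 1.52 log2 (SE 0.18 and 0.15, adjusted p = 4.46e-05 and 1.1e-05), and of these Tmem176a was higher in leukocytes.

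Transcripts of macrophages rose in the isograft preparations although cells with CD45 had been removed. Gpnmb, a glycoprotein of lipid-laden macrophages, read 6.15, 5.54 and 6.09 log2 in the normal and 10.36, 11.81 and 10.39 in the isograft arrays, a rise of 4.93 log2 or 30.4-fold (SE 0.48, adjusted p = 1.02e-05), the largest of the genes called. Lysozyme (Lyz2) read 8.97, 8.94 and 9.63 against 11.67, 12.73 and 11.73, a rise of 2.86 log2 (SE 0.33, adjusted p = 3.94e-05). Mpeg1, which perforates engulfed microbes, read 4.67, 4.50 and 4.96 against 7.49, 8.68 and 7.11, a rise of 3.05 log2 (SE 0.35, adjusted p = 3.94e-05) with 0.84 in its other probe set. The groups were far apart for all of these genes, and isograft array 2 was again the highest. The galectin Lgals3 rose by 2.44 log2 (SE 0.35, adjusted p = 0.000445).

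Of 19 macrophage markers 8 rose and 0 fell, against 1.06% of all genes, with a median of 1.57 log2, and 18 of the 19 were leukocyte-high. These markers were also chosen with earlier results of these data known, and the share was not tested. The list's mean was 6.04, 6.28 and 6.33 log2 in the normal and 7.34, 8.42 and 7.43 in the isograft arrays. The count of 8 became 4 without isograft array 2, 5 without normal array 1 or 2, and 13 with the block on the 6 arrays. The receptor of macrophage growth factor, Csf1r, rose by 1.74 log2 (adjusted p = 0.0133) and the mannose receptor Mrc1 by 2.62 log2 (adjusted p = 0.00867), and both calls were lost without normal array 1, normal array 2 or isograft array 2 (adjusted p = 0.056 to 0.135). Fcer1g, the signalling chain of Fc receptors, rose by 2.37 log2 (SE 0.39, adjusted p = 0.00208) with each array left out in turn. Cd68, a lysosomal marker, overlapped between the groups (1.57 log2, adjusted p = 0.184, and 0.000307 with the block). Of 24 genes of phagocyte lysosomes and lipids 8 rose and 0 fell, against 1.06% of all genes called higher. Of the 8, Gpnmb and Tyrobp were macrophage markers too. Without isograft array 2, 3 of the list rose, and without normal array 1 or 2, 5 rose.

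Complement and other leukocyte lists moved less. Of 13 complement genes 2 rose and 0 fell (4 and 0 with the block on the 6 arrays), with a median of 0.52 log2: C5ar1, the receptor of the C5a fragment on myeloid cells, by 1.79 log2 (SE 0.32, adjusted p = 0.00393), and the C1 inhibitor Serping1 by 1.64 log2 (SE 0.32, adjusted p = 0.00866). Of 17 pan-leukocyte markers 1 rose, the tetraspanin Cd53, by 1.91 log2 (adjusted p = 0.0409), which was lost without any 1 of the normal arrays or isograft array 2 (adjusted p = 0.084 to 0.327). Ptprc, which encodes CD45, read 5.40, 5.29 and 5.68 log2 in the normal and 6.55, 7.87 and 5.93 in the isograft arrays (1.33 log2, adjusted p = 0.21). The neutrophil calgranulin S100a9 read 4.92, 8.16 and 5.28 log2 in the isograft arrays against 4.93, 4.78 and 4.96, and of 9 neutrophil markers 0 were called (mean 5.51, 6.57 and 5.66 log2 against 5.45 to 5.55). Of 15 T cell markers 1 rose, the kinase Lck, by 0.92 log2 (adjusted p = 0.0179, and 0.0657 to 0.174 without normal array 1, normal array 2 or isograft array 2), while the receptor chain Cd3e overlapped (0.21 log2, adjusted p = 0.956). None of 14 cytotoxic lymphocyte or 7 B cell markers was called.

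**Figure D2:**
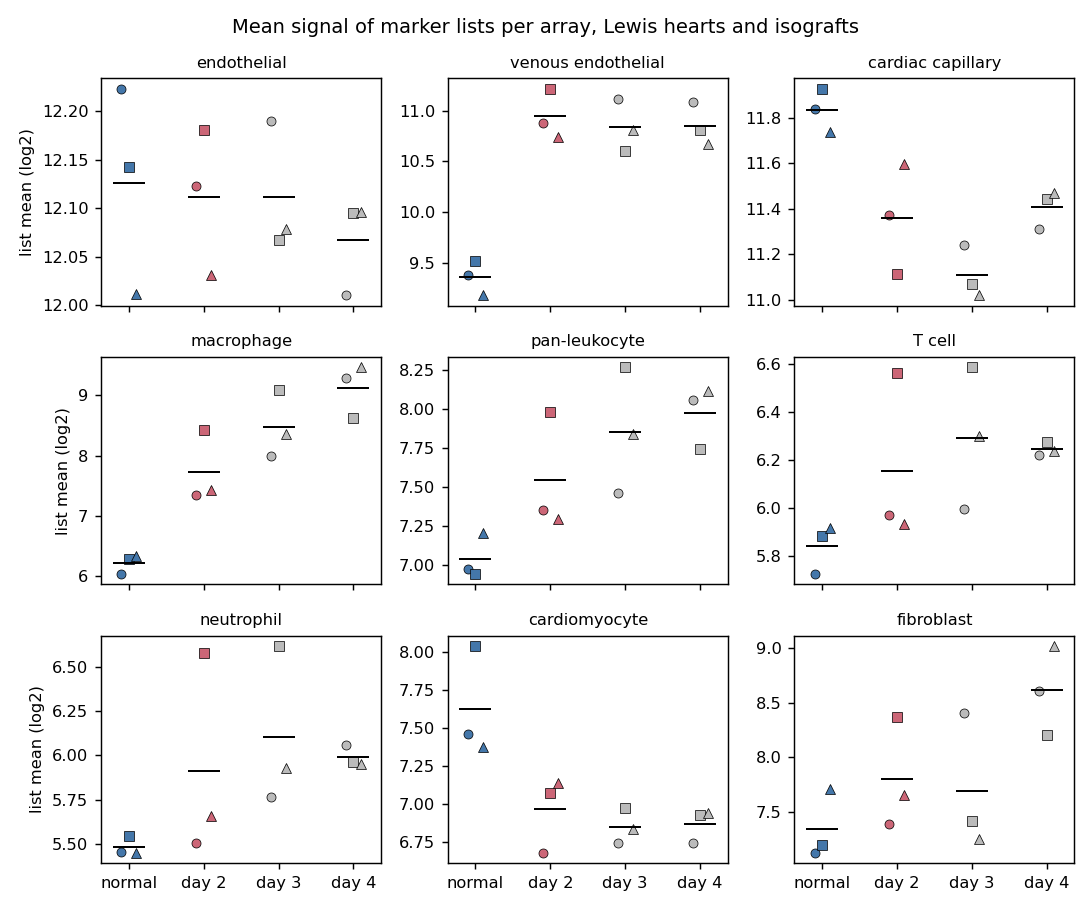
Mean signal (log2) of the members of 9 marker lists in each normal Lewis array (blue) and in isograft arrays of day 2 (red) and of days 3 and 4 (grey), with a marker shape for each replicate number, a line at the group mean and a separate vertical scale for each list. Venous and macrophage markers lie above all normal arrays on day 2, heart muscle markers below them, and replicate 2 of day 2 is the highest of its group for macrophage, pan-leukocyte, T cell, neutrophil and fibroblast markers.

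Of the 151 genes called higher, 51 (33.8%) were leukocyte-high, that is at least 2-fold above allograft endothelium with no overlap in the 4 leukocyte arrays, against 8.61% of all genes. A further 46 (30.5%, against 8.64% of all genes) were at least 2-fold higher in the endothelium, and 54 were neither. The leukocyte arrays had been normalized apart, and a median shift of 0.327 log2 was removed. Of the 60 genes called lower, 5 were higher in leukocytes and 24 in endothelium. With the pan-leukocyte mean as a covariate 75 genes were called (0.528%), among them genes of both kinds. Of the leukocyte-high genes, Gpnmb stood at 4.06 log2, Mpeg1 at 2.29, Lyz2 at 2.18, Fcer1g at 1.5 and Abca1 at 3.23 (adjusted p at most 0.00023). On the endothelial side, Selp stood at 3.61 log2, Sele at 3.00, Ackr1 at 2.91, Plvap at 2.37, Slco2a1 at 2.71 and Dmbt1 at 2.55 (adjusted p at most 0.000464), and Vcam1 at 1.62 (adjusted p = 0.0497). Ptgs2 was not called, at 2.65 log2 against 3.08 without the covariate (adjusted p = 0.147).

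**Figure D3:**
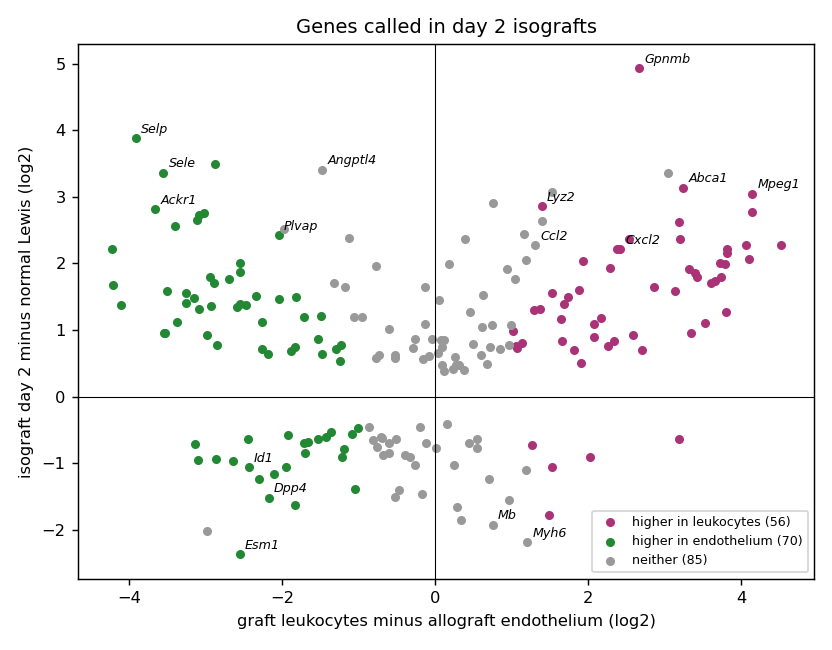
Difference between day 2 isografts and normal Lewis endothelium (log2, vertical) against the difference between graft leukocytes and allograft endothelium after removal of the median shift (log2, horizontal) for the 211 genes called, coloured by where they were at least 2-fold higher without overlap. Rises occur on both sides of zero, with Selp, Sele and Ackr1 on the endothelial side and Mpeg1 and Abca1 on the leukocyte side, and 42 of the 60 falls on the endothelial side.

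Markers of lymphatic endothelium, which also carries CD31, rose in part. Podoplanin (Pdpn) read 6.36, 5.72 and 7.83 log2 in the normal and 10.10, 9.32 and 9.22 in the isograft arrays, a rise of 2.91 log2 (SE 0.46, adjusted p = 0.0014). The hyaluronan receptor Lyve1, which some macrophages also carry, read 7.96, 7.51 and 9.14 against 10.85, 10.60 and 10.26, a rise of 2.37 log2 (SE 0.55, adjusted p = 0.031) that was called without normal array 3 and lost without any other array (adjusted p = 0.0636 to 0.175). The defining transcription factor Prox1 read 6.32, 5.93 and 7.24 against 7.66, 7.12 and 7.50 log2, with overlap (0.93 log2, adjusted p = 0.503, and 0.0415 with the block). Normal array 3 was the highest of its group for Pdpn, Lyve1 and Prox1. With Fgl2, 3 of 9 lymphatic markers rose and 0 fell, against 1.06% of all genes called higher. The list's median was 1.47 log2.

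Transcripts of heart muscle cells fell. Myoglobin (Mb), the oxygen store of muscle, read 8.84, 9.68 and 8.36 log2 in the normal and 6.79, 7.15 and 7.18 in the isograft arrays, a fall of -1.92 log2 (SE 0.29, adjusted p = 0.000994). Cardiac troponin I (Tnni3) read 8.36, 9.52 and 8.51 against 6.63, 7.02 and 7.18 (-1.85 log2, SE 0.32, adjusted p = 0.00311). The myosin Myh6 read 8.30, 8.64 and 7.44 against 5.93, 5.69 and 6.20 (-2.19 log2, SE 0.40, adjusted p = 0.00506), with -0.15 in its other probe set. Troponin C (Tnnc1) fell by 1.24 on the log2 scale (adjusted p = 0.0337), and its call was lost without normal array 2 or isograft array 1 or 2 (adjusted p = 0.0549 to 0.228). Of 21 heart muscle markers 4 fell and 0 rose, against 0.422% of all genes called lower, with a median of -0.38 log2. Counts of 3 were found without normal array 2, isograft array 1 or isograft array 2, of 6 without normal array 1 or 3, and of 8 with the block on the 6 arrays. The list's mean was 7.46, 8.04 and 7.38 log2 in the normal and 6.68, 7.07 and 7.14 in the isograft arrays, highest in normal array 2. With that mean as a covariate 44 genes were called (37 higher and 7 lower), Selp, Sele, Ackr1, Plvap, Slco2a1, Dmbt1, Abca1 and Gpnmb among them (adjusted p at most 0.00438).

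Other falls lay in cell-surface enzymes and in genes with no list. The peptidase Dpp4, which trims chemokines and incretins, read 10.91, 10.56 and 10.71 log2 in the normal and 9.40, 8.86 and 9.36 in the isograft arrays, a fall of -1.52 log2 (SE 0.29, adjusted p = 0.00593, and 0.0574 without isograft array 2). Qpct, which turns the first glutamine of peptides into pyroglutamate, read 8.95, 8.76 and 8.53 against 7.28, 6.79 and 6.87, a fall of -1.77 log2 (SE 0.30, adjusted p = 0.00258). The membrane aminopeptidase Xpnpep2 fell by 1.62 on the log2 scale (adjusted p = 0.00957, and 0.0719 and 0.0588 without normal array 1 and isograft array 3). Cyp26b1, which degrades retinoic acid, read 10.19, 10.63 and 10.72 against 8.19, 8.74 and 8.58. Its fall of -2.01 log2 (SE 0.50, adjusted p = 0.0466) was lost whichever array was left out (adjusted p = 0.0855 to 0.157) and in the block over 24 arrays (0.0582).

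Serpinb7, a protease inhibitor, read 6.95, 6.95 and 6.29 log2 in the normal and 5.06, 5.25 and 5.35 in the isograft arrays, the fall with the lowest adjusted p (-1.51 log2, SE 0.18, adjusted p = 7.56e-05). Myosin light chain kinase (Mylk), which drives contraction and endothelial gap formation, read 11.21, 11.05 and 11.10 against 10.59, 10.40 and 10.34, a fall of -0.68 log2 (SE 0.11, adjusted p = 0.00251). It was the 1 called of 15 markers of mural cells and smooth muscle. Sema3d, a guidance signal, fell by 1.24 on the log2 scale (adjusted p = 0.0415), and Scn7a, a sodium channel of glia and neurons, by 1.66 (adjusted p = 0.0333). The first call held only without isograft array 1 and the second only without normal array 3 or isograft array 2, with adjusted p from 0.0551 to 0.321 when lost. Carbonic anhydrase 2 (Car2), named after its value was seen, fell by 1.06 on the log2 scale (adjusted p = 0.0096, and 0.0504 to 0.0827 without normal array 1, isograft array 2 or isograft array 3).

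Lists with 0 calls in either direction were fatty acid uptake (20 genes, median -0.16 log2), heat shock and ER stress (22, 0.12), the ATF4 response (21, 0.13), clock and glucocorticoid genes (24, -0.08), cell death (27, 0.10) and the respiratory chain (35, 0.06). The same held for markers of mast cells (12, 0.04), fibroblasts (15, 0.27), adipocytes (12, 0.00), mesothelium (10, -0.02), red cells (8, -0.14) and platelets (8, -0.10). Single genes were called in lists of coagulation (22 genes, median 0.27), hypoxia and glycolysis (28, 0.11), shear and Klf genes (24, -0.09), nerve sheath (12, 0.08), endocardium (8, 0.13) and dendritic cells (6, 0.28). These were Procr, the endothelial receptor of protein C (1.12 log2, adjusted p = 0.0365), the glycolytic enzyme Pgk1 (0.75 log2, adjusted p = 0.0344), the transcription factor Ets2 (0.53 log2, adjusted p = 0.0366), the myelin protein Pmp22 (1.27 log2, adjusted p = 0.0136), Plvap, and the lectin Clec10a (2.00 log2, adjusted p = 0.005). Procr, Pgk1, Ets2 and Pmp22 were each lost without normal array 1 (adjusted p = 0.204, 0.0597, 0.0737 and 0.0881), normal array 3 (0.102, 0.134, 0.197 and 0.0574) or isograft array 2 (0.298, 0.276, 0.22 and 0.138). Isograft array 3 also carried the calls of the first 3, normal array 2 that of Pgk1 and isograft array 1 that of Ets2 (adjusted p = 0.0571 to 0.128 without them). The block on the 6 arrays called 398 of all 14217 genes higher and 174 lower (4.02% in both directions). With it, 6 of the cell death and 6 of the coagulation genes rose, and 1 of the former fell. It called 3 higher in the ATF4 list, 3 higher and 1 lower in each of the hypoxia and mural lists, 2 higher in each of the heat shock, fibroblast, endocardial, dendritic and T cell lists, and 0 in the shear list. It called 2 arterial markers lower, and 1 member each way in the endothelial and nerve sheath lists. A single member was called higher in each of the clock, MHC class II, neutrophil and B cell lists, and lower in each of the fatty acid, type I interferon, heart capillary and mesothelial lists.

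Isografts of days 3 and 4 were set against the same 3 normal arrays, so their differences share the controls of day 2 and are given only beside it. Selp stood at 3.88, 4.23 and 3.83 log2 above normal on days 2, 3 and 4, Slco2a1 at 2.75, 2.61 and 2.65, Dmbt1 at 2.65, 2.97 and 3.01, and Plvap at 2.42, 2.38 and 2.61. Madcam1 stood at 0.85, 0.12 and 0.11 log2, and Angptl4 at 3.41, 2.14 and 2.36. Falls of day 2 read -2.37, -1.27 and -1.46 for Esm1 and -0.93, -0.76 and -0.77 for Dll4. Among leukocyte-high genes, Mpeg1 read 3.05, 3.99 and 4.86 log2 and Csf1r 1.74, 2.45 and 2.98.

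Day 4 was compared with day 2 directly to ask what changed after the first 2 days. Only 5 genes were called, all higher on day 4 (0.0352% of the genes tested, with 343 genes at an unadjusted p under 0.05 in limma). C1qa and C1qc, chains of the first complement component made by macrophages, had means of 6.95 ± 0.43 and 6.64 ± 0.33 log2 on day 2 and of 9.62 ± 0.20 and 8.78 ± 0.46 on day 4 (SD, n = 3). They rose by 2.68 log2 (SE 0.33, adjusted p = 0.00131) and 2.13 log2 (SE 0.35, adjusted p = 0.0184). Adgre1, a surface antigen of macrophages, rose by 2.40 log2 (SE 0.39, adjusted p = 0.0184), complement factor D (Cfd) by 2.79 log2 (SE 0.44, adjusted p = 0.0149) and Rarres1, a retinoid-induced membrane protein, by 1.59 log2 (SE 0.25, adjusted p = 0.0149). None of the 5 was called on day 2 against normal endothelium, where their differences were 0.31 to 0.61 log2, and all were higher in leukocytes. C1qa was called with each of the 6 arrays left out in turn, and the others were lost without array 1 or 3 of either day (adjusted p = 0.127 to 0.243). Of the 151 genes called higher on day 2, 93 had a higher mean on day 4, 45 of the 51 higher in leukocytes and 21 of the 46 higher in endothelium. Of the 60 called lower, 46 had a higher mean on day 4. All these genes were chosen by the same day 2 arrays, a choice that by itself favours a move back toward normal. The share of all genes with a higher mean on day 4 was not counted, so no recovery is read from these counts.

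Allografts of day 2 against normal DA endothelium, which share no array with the Lewis comparison, asked which day 2 changes were also seen across a mismatch. Both comparisons came from 1 fit with the same spread for each gene, so their calls are not independent. There 850 genes were called (5.98%), 502 higher (3.53%) and 348 lower (2.45%). Of the isograft calls, 136 were also higher in allografts, 90.1% of the isograft and 27.1% of the allograft list, and 42 were also lower, 70.0% and 12.1%. None was called in opposite directions, and 208 of the 211 had the same sign. Sele rose by 3.36 log2 in isografts and 2.39 in allografts, Angptl4 by 3.41 and 4.40, Lyz2 by 2.86 and 4.70, and Fgl2 by 1.99 and 3.23. Tnni3 stood at -1.85 and -0.72 log2 (adjusted p = 0.217 in allografts), Serpinb7 at -1.51 and -0.58 (0.0675) and Lbp at 1.71 and 0.72 (0.33). The difference of the changes itself was called by limma for 0 genes, with 480 at an unadjusted p under 0.05 and 4 called with array weights, so that no gene was shown to change more in the one graft type on day 2.

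**Figure D4:**
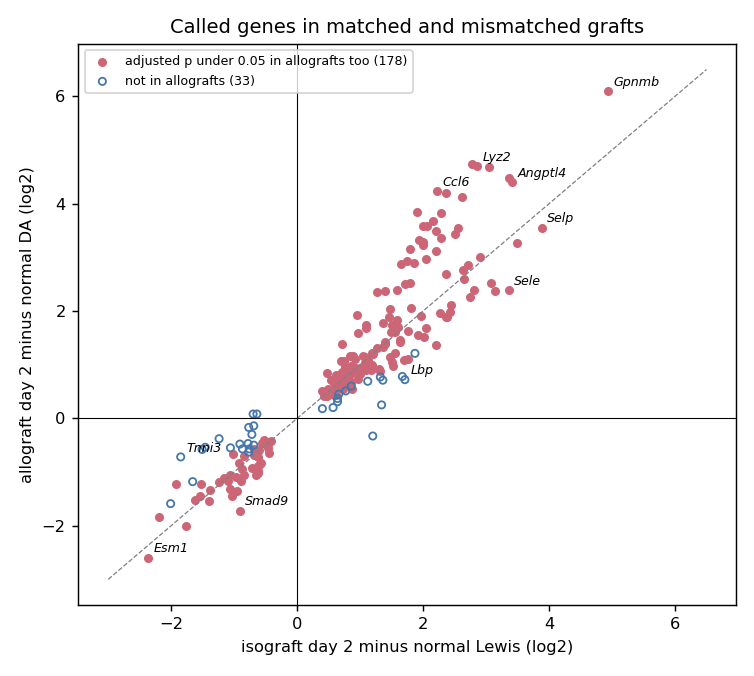
Difference between day 2 allografts and normal DA endothelium (log2, vertical) against the difference between day 2 isografts and normal Lewis endothelium (log2, horizontal) for the 211 genes called in isografts, filled where they were called in allografts too (178) and open where not (33), with the dashed line at equal differences. Only 3 genes lie on opposite sides of zero, and Gpnmb, Lyz2 and Ccl6 lie above the line.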

How the data were processed

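The authors deposited log2 signals per probe set of Affymetrix rat arrays, made with RMA in the affy package per the submitters' processing notes, and the versions are not given in the sources used here. By their values, the 24 endothelial arrays (medians 6.51 to 6.59) had been normalized together and the 4 leukocyte arrays apart (6.83 to 6.88). Per the design text, replicates are biological, but not whether an array is 1 animal, so p-values measure the spread between samples only. The number of arrays limits the precision.

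Of 31099 probe sets, 57 controls, 436 matching several genes and 9780 not in the annotation used here were left out. Of 20826 with 1 gene, 20758 had an Entrez identifier in RefSeq. The brightest probe set of each gene over the endothelial arrays was kept (4525 genes had several), dim genes included. limma 3.58.1 (R 4.3.3) fitted 1 mean per group on the 24 endothelial arrays (residual degrees of freedom 16, prior 4.06). Benjamini-Hochberg adjustment ran over the whole table of 14217 genes, and an adjusted p under 0.05 is a call. A list's count uses these calls. A block is an added term for the replicate number. Same-numbered normal Lewis and day 2 isograft arrays deviated together (r = 0.292, 0.350 and 0.412 for numbers 1, 2 and 3, against -0.384 to 0.019 for unlike numbers). A block on the numbers was therefore tried, and the main fit has none. Allograft array 2 of day 2 deviated as closely with arrays of another number (r = 0.44 with isograft array 3 of day 2 and 0.499 with normal Lewis array 3). The r values therefore do not show that the numbers pair samples. The labels do not say what a number stands for. The blocked fit over 24 arrays called 255 genes. On simulated data for this comparison, 82% of 100 genes changed by 1 log2 and 100% of 100 changed by 2 log2 were recovered, with 12 false calls among 14217 genes. The simulated arrays deviated independently with 1 spread per gene, unlike the real arrays, so these rates may not hold for them.

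The members and the 52 gene lists (30 of processes, 22 of cell types, 953 of 1063 members measured) were chosen with earlier results of these data known. Named were the 20 largest rises, 15 largest falls and 15 lowest adjusted p among the calls, the called and up to 3 other members per list, and up to 6 genes each way for day 4 against day 2, with exceptions marked. Pecam1, Tek, Prox1 and Cd3e were added as defining markers. Settings of normalization, probe set choice, weights, covariates, blocks and arrays were varied, and the 6-array block and the interquartile scaling were chosen after seeing the data. Tables and figures were made with Python 3.11.15, pandas 2.3.3, numpy 2.4.6 and matplotlib 3.10.9.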

Additional observations from a re-analysis of the deposited data

Results flagged for a closer look

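Between day 2 and day 4 the change from normal Lewis endothelium differed for 5 genes by limma's test of the difference. Cfd was 2.79 log2 higher on day 4, C1qa 2.68, Adgre1 2.40, C1qc 2.13 and Rarres1 1.59, each on day 4 against day 2 with the values of the report. With the fit on the arrays of both days alone, 1 of the 5 calls was left, that of C1qa.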

How the results depend on the processing

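The 211 calls of day 2 isografts moved by more than 1.5 times with array weights (451, from weights whose estimate stopped before convergence), the replicate block on the 6 arrays alone (572, chosen after seeing the data), the pan-leukocyte mean as a covariate (75) and the heart muscle mean as a covariate (44). Leaving out 1 array gave 92 to 176. The causes were not tested, except that leaving out an array also removes a sample. Of the genes called and named, none changed sign in any of these fits. Of the genes named but not called, 4 changed sign. Cd3e (0.21 log2) read -0.02 with array weights, -0.35 with the pan-leukocyte covariate and -0.13 to 0.46 with 1 array left out. Pecam1 (0.06) read -0.03 with the heart muscle covariate and -0.19 to 0.27 with 1 array left out. With the pan-leukocyte covariate S100a9 read -0.15 (1.23 without it) and Tek 0.09 (-0.09 without it). The 5 calls of day 4 against day 2 became 41 with array weights, 1 with only the arrays compared, 2 with the pan-leukocyte covariate, 0 with the replicate block on the 6 arrays, and 1 to 17 with 1 array left out. The 0 calls of the difference of changes became 4 with array weights and stayed at 0 in the other settings. Same-numbered arrays did not consistently deviate together in these last comparisons. Scaling the arrays moved the median of all genes by -0.028 to -0.033 log2. Dim probe sets and 3 arrays a group limit what small changes could be seen.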

Other observations

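Ribosomal protein genes, gathered by symbol after the values were seen, lay slightly above normal in day 2 isografts. Of 47 measured, 43 were above 0, against 6904 of all 14217 genes, and 3 were called higher, against 1.06% of all genes. Their median was 0.19 log2. No test was made of this list.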
